A study of Mus musculus with 8 samples.

Results

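The CD300 receptors are cell-surface proteins of the immunoglobulin superfamily, and 5 of their genes are described here: Cd300ld, Cd300a, Cd300lb, Cd300lf and Cd300lg. They are 5 of the 16593 genes with a named probe on the array, and 6 of its 25697 probes carry their symbols. Cd300ld was chosen by its own normalized levels, which stood out between the genotypes, so its values are a description without a test. The other myeloid members were taken as its relatives and Cd300lg as the family member of the endothelium.

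The samples were adipose tissue of obese, high-fat-fed mice on a C57Bl6 background, fasted for 5 h before collection and profiled on Illumina bead arrays, with 1 sample per array. There were 2 wild-type samples (WT, age 24 weeks), 3 from IL6 knock-outs (IL6_KO, 25 weeks) and 3 from sgp130Fc transgenic mice (26 weeks). Each genotype was of a single age, so age and genotype cannot be told apart. The sgp130Fc protein is a soluble form of the IL-6 signal transducer gp130 joined to an antibody Fc part, and it binds the complex of IL-6 with soluble IL-6 receptor. The comparisons ask how the fat of mice without IL-6, or with this form of IL-6 signalling blocked, differed from that of wild-type mice. The fat depot, the sex, the promoter of the transgene and whether each replicate was a separate animal are not given in the sources used here, so p-values measure only the spread between these samples, which may be technical.

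CD300 receptors are paired receptors: relatives with similar outer domains pass opposite signals into the cell. The inhibitory ones, such as CD300a and CD300lf, carry tyrosine motifs that recruit phosphatases such as SHP-1, whereas the activating ones, such as CD300lb and CD300ld, have short tails and signal through adaptors such as DAP12 and the Fc receptor gamma chain. Most are found on macrophages, neutrophils, mast cells and dendritic cells, and several bind lipids exposed on dying cells, whereas CD300lg, also called nepmucin, is found on endothelial cells of capillaries and venules.

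Between 12499 and 13378 probes (48.6% to 52.1%) were above background on each array, and the median intensity before normalization lay between 109.1 and 145. IL6_KO replicate 2 stood apart, with a mean correlation of 0.944 with the other arrays, against 0.964 to 0.973 for the rest. The Il6 probe could not check the labels. It was not above background on any WT or sgp130Fc array, and it was above background on 2 of the 3 arrays labelled IL6_KO, at 5.17 on replicate 1 and 5.16 on replicate 3 (5.07, detection p 0.0602, on replicate 2). Whether the probe falls inside or outside the deletion is not given in the sources used here, so IL6_KO denotes the arrays with that label throughout. The adipocyte genes Adipoq and Lep were bright on all arrays. Levels are normalized log2 intensities, and a probe counts as detected where its detection p is under 0.05; the lowest level among detected probes was 4.94 to 5.12, depending on the array.

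On the mouse genome (GRCm38.p6), RefSeq lists 12 Cd300 genes, all on chromosome 11. A cluster of 11 of them spans chr11:114889152-115135372, which is 246.2 kb, and holds Cd300a (chr11:114889152-114901946), Cd300lb (chr11:114922779-114934371), Cd300ld (chr11:114982443-114989886) and Cd300lf (chr11:115116214-115135372). Cd300lg (chr11:102041511-102055617) lies alone, 12.8 Mb away. Probes were present for 8 of the 12 genes. The sequences of the probes, and so the exon that each one reads, are not given in the sources used here. Cd300ld has close relatives in the cluster (Cd300ld2, Cd300ld3, Cd300ld4 and Cd300ld5), and whether its probe also binds their transcripts was not tested.

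How alike these relatives are can be seen in the 250 bases before the start of Cd300ld and of Cd300ld3, whose probes stood in opposite order between WT and the other groups. Both are on the minus strand, in RefSeq's annotation of GRCm38.p6, at chr11:114989887-114990136 and chr11:115048331-115048580. The start is that of the promoter entry, which need not be the outer end of the gene span. The Cd300ld3 window overlaps the span of that gene (chr11:115042104-115048419). The windows of Cd300a and Cd300lf lie inside the gene spans given above, and some other family windows also overlap their genes. The capitals mark the letters GAGGAA, the core bound by PU.1, the transcription factor of myeloid cells.
Cd300ld: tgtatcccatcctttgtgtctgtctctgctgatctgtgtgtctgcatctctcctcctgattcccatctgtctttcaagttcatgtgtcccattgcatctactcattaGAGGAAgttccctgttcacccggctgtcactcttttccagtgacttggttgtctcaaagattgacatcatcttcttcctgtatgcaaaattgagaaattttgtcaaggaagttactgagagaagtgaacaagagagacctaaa
Cd300ld3: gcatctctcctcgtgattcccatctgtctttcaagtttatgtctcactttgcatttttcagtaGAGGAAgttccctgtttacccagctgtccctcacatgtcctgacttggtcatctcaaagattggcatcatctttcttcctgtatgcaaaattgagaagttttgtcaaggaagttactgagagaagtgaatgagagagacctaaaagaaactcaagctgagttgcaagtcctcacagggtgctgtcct
Over windows of 300 bases around the starts, 225 of the 257 aligned positions (87.5%) were identical between this pair, gaps counted as differences. Cd300ld4 and Cd300ld5 were identical over all 300 bases, and each shared 285 of 299 positions (95.3%) with Cd300ld3. Of the 4 members with a promoter entry (Cd300ld, Cd300a, Cd300lb and Cd300lf), 3 held GAGGAA on either strand, Cd300lb being the one that did not. In the family as a whole 7 of 10 promoters held it, against 23.3% of 32851 promoters of the same length. The matches of Cd300ld, Cd300ld3, Cd300ld4 and Cd300ld5 lie in near copies of the same stretch. The 7 are therefore not independent, and the count is no measure of enrichment. For the letters TTCNNNGAA, the core of STAT sites, which occur in 7.02% of promoters, and TGANTCA, the core of AP-1 sites, which occur in 6.75%, no member's window held a match. TTGCNNAA, a C/EBP core found in 9.56% of promoters, occurred in the window of Cd300a. Among the other family genes, the window of Cd300e held TTCNNNGAA. These matches are letters in a window and not measured binding.

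Cd300ld, the activating receptor of the myeloid cluster, was low in wild-type fat and bright in both modified genotypes. On the WT arrays it read 6.74 and 4.79, and the second of these was not above background (detection p 0.117). On the IL6_KO arrays it read 9.26, 10.71 and 9.09. On the sgp130Fc arrays it read 8.40, 8.41 and 8.27. The groups did not overlap, as was the case in the same direction for 18.5% of all tested probes in IL6_KO against WT, 13.1% in sgp130Fc against WT and 12.6% in sgp130Fc against IL6_KO. Every IL6_KO array was above every sgp130Fc array, and every sgp130Fc array was above both WT arrays. Before normalization the same order held in the linear intensities. These were 221.2 and 126.9 for WT, 708.1, 2135.3 and 661.7 for IL6_KO, and 462.6, 358.6 and 318.2 for sgp130Fc. The brightest reading was that of IL6_KO replicate 2, the array that stood apart.

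The group means of Cd300ld were 5.76 ± 1.38 (SD, n = 2) in WT, 9.69 ± 0.89 (n = 3) in IL6_KO and 8.36 ± 0.08 (n = 3) in sgp130Fc. The log2 difference was 3.92 ± 0.59 (SE) for IL6_KO minus WT, a 15.2-fold higher level, and 2.59 ± 0.59 for sgp130Fc minus WT, a 6.04-fold higher level. Since 1 of the 2 WT readings was below background, these folds, and the ranks below, are not exact. The difference was -1.33 ± 0.53 for sgp130Fc minus IL6_KO. The difference of IL6_KO minus WT was the highest of all 14141 tested probes and that of sgp130Fc minus WT ranked 5 from the top, which is what the gene was chosen for. Both differences use the same 2 WT arrays. These sizes rest on a pair of WT readings that differ by more than either of the other groups spans. Without WT replicate 1 the differences from WT were 4.90 and 3.57, and without WT replicate 2 they were 2.95 and 1.62. Without IL6_KO replicate 2 the difference of IL6_KO from WT was 3.41 and that of sgp130Fc from IL6_KO was -0.81. With quantile normalization and no background correction the differences from WT were 2.54 and 1.42.

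**Figure D1:**
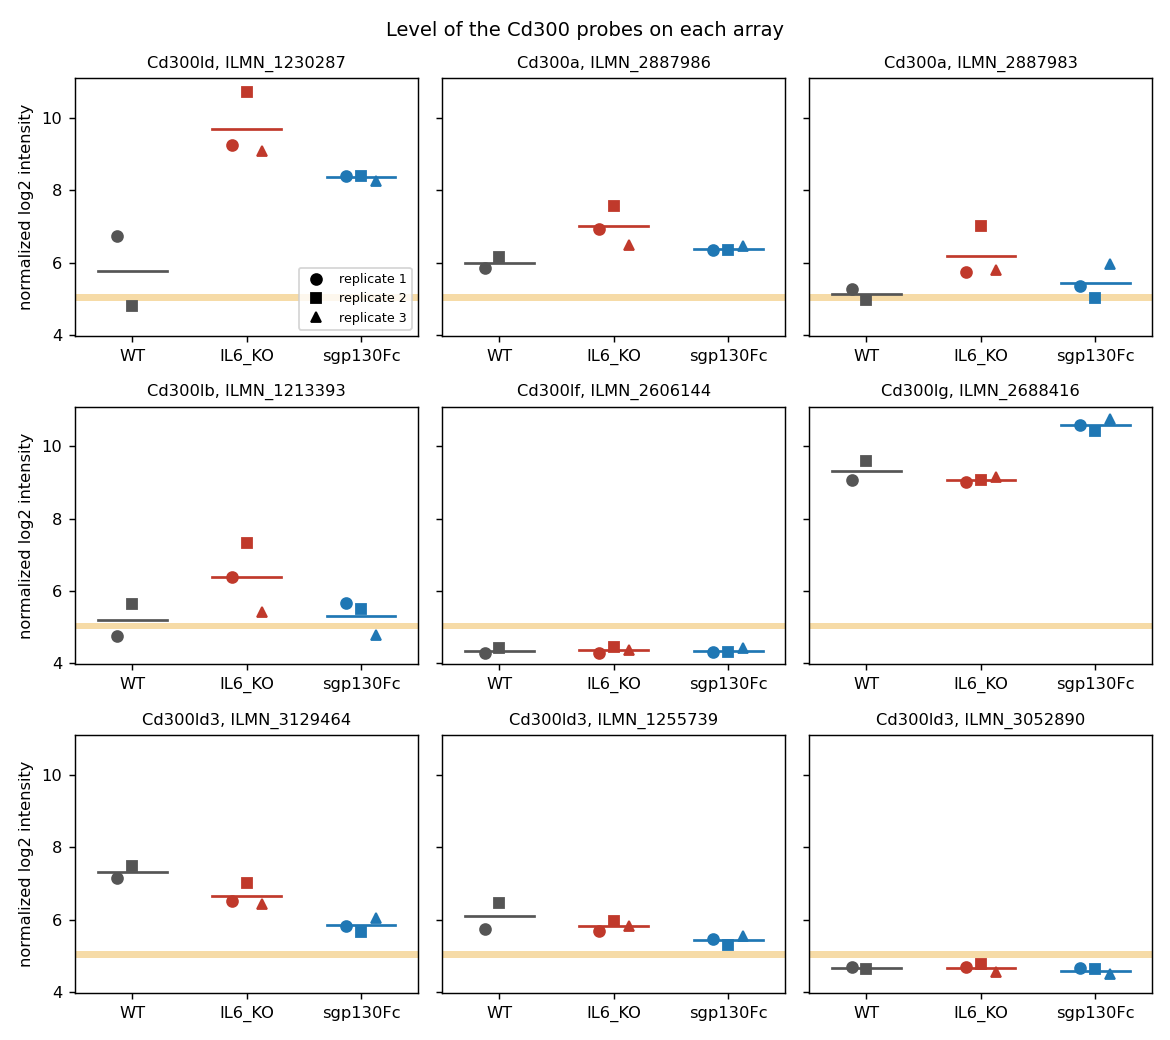
Normalized log2 intensity (vertical axis) of every Cd300 probe of the 5 members and of Cd300ld3 on the 8 arrays, by group (horizontal axis); circles, squares and triangles are replicates 1, 2 and 3, short lines are group means, and the band marks the lowest level among detected probes (4.94 to 5.12). Cd300ld is lowest on the 2 WT arrays, Cd300lg is highest on the 3 sgp130Fc arrays, and Cd300lf lies below the band on all 8 arrays.

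Cd300lb encodes the other activating receptor among the members, which pairs with DAP12, and its single probe lay close to background. It read 4.77 and 5.65 on the WT arrays, 6.40, 7.32 and 5.42 on the IL6_KO arrays, and 5.67, 5.51 and 4.77 on the sgp130Fc arrays. IL6_KO replicates 1 and 2 were the only arrays above 6, and the groups overlapped in all 3 comparisons. It was detected on 1 of 2 WT, 3 of 3 IL6_KO and 2 of 3 sgp130Fc arrays. The log2 difference of IL6_KO minus WT was 1.17 ± 0.51 (SE) and did not pass (adjusted p = 0.241). Without IL6_KO replicate 2 it was 0.70 (adjusted p = 0.505). The difference of sgp130Fc minus WT was 0.11 ± 0.51 (adjusted p = 0.973), with a 95% interval of -1.06 to 1.27, and that of sgp130Fc minus IL6_KO was -1.06 ± 0.46 (adjusted p = 0.275).

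Cd300a encodes an inhibitory receptor that binds phosphatidylserine and phosphatidylethanolamine, lipids exposed on dying cells. Its brighter probe read 5.84 and 6.16 in WT, 6.94, 7.57 and 6.49 in IL6_KO, and 6.34, 6.34 and 6.45 in sgp130Fc, and was detected on all 8 arrays. As with Cd300ld, WT was lowest, sgp130Fc lay between and IL6_KO was highest, with no overlap between groups. The gap between sgp130Fc and IL6_KO was narrow, at 0.043 on the log2 scale. Such gaps are common on this array, at 12.6% to 18.5% of probes in these directions. The log2 difference of IL6_KO minus WT was 1.00 ± 0.28 (SE; adjusted p = 0.123), and without IL6_KO replicate 2 it was 0.71 (adjusted p = 0.184). Without IL6_KO replicate 3 it was 1.25 and passed (adjusted p = 0.0343). For sgp130Fc minus WT it was 0.37 ± 0.28 (adjusted p = 0.772), with a 95% interval of -0.26 to 1.01, and for sgp130Fc minus IL6_KO it was -0.63 ± 0.25 (adjusted p = 0.244).

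The dimmer probe of Cd300a read 5.27 and 4.97 in WT, 5.74, 7.01 and 5.79 in IL6_KO, and 5.37, 5.02 and 5.96 in sgp130Fc. Its log2 differences had the same signs as those of the brighter probe, at 1.06, 0.33 and -0.73 in the order IL6_KO minus WT, sgp130Fc minus WT, sgp130Fc minus IL6_KO. None passed, with adjusted p-values of 0.190, 0.869 and 0.323. With this probe the sgp130Fc arrays overlapped both other groups.

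Cd300lf encodes an inhibitory receptor of myeloid cells, and its probe was not above background on any of the 8 arrays. The readings lay between 4.30 and 4.45, the same narrow range in all groups. No difference could be measured for it, and with 0 of 8 arrays detected it was left out of the test. Since the probe is below the limit of detection, its reading says nothing about how the gene compares between genotypes.

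Cd300lg, the endothelial member, rose in sgp130Fc fat relative to IL6_KO fat. It read 9.07 and 9.60 on the WT arrays, 9.03, 9.07 and 9.16 on the IL6_KO arrays, and 10.58, 10.42 and 10.77 on the sgp130Fc arrays. All 3 sgp130Fc arrays were above all 5 others, as for 13.1% of all probes against WT and 13.1% against IL6_KO, and WT and IL6_KO overlapped. The group means were 9.33 ± 0.37 (SD, n = 2), 9.09 ± 0.07 (n = 3) and 10.59 ± 0.18 (n = 3). Against IL6_KO the level in sgp130Fc was 2.84-fold higher, a log2 difference of 1.51 ± 0.18 (SE; adjusted p = 0.00795). Against WT it was 2.39-fold higher, a log2 difference of 1.26 ± 0.20, which did not pass (adjusted p = 0.0742). The difference of IL6_KO minus WT was -0.25 ± 0.20 (adjusted p = 0.510), with a 95% interval of -0.69 to 0.20. Leaving out sgp130Fc replicate 3 ended the call against IL6_KO (log2 difference 1.42, adjusted p = 0.0517), while the difference from WT passed with an offset of 50 (1.21, adjusted p = 0.0448) or an intensity trend (1.26, adjusted p = 0.0419).

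Of the 3 members that were tested (Cd300a, Cd300lb and Cd300lg, by their brightest probe), 0 passed for IL6_KO minus WT, where 0.248% of all probes passed. The unadjusted p was under 0.05 for Cd300a (0.00626) and Cd300lb (0.0488), as it was for 20.6% of all probes. For sgp130Fc minus WT, 0 of the 3 passed against 0.0919% of all probes, and the unadjusted p of Cd300lg alone was under 0.05 (0.000131), as it was for 8.23% of all probes. For sgp130Fc minus IL6_KO, 1 of the 3 passed, which was Cd300lg, against 1.27% of all probes. Cd300ld is not counted here, because it was chosen for its values, nor Cd300lf, which was not detected.

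**Figure D2:**
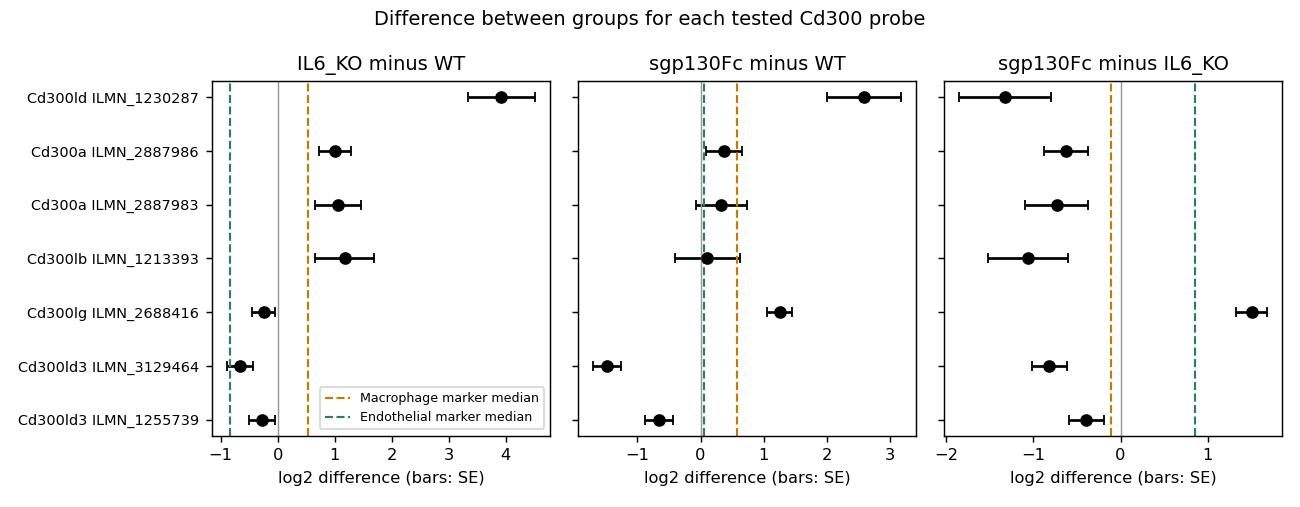
Log2 differences (horizontal axis) of the tested Cd300 probes in the 3 comparisons, with bars for the standard error and dashed lines for the median of the macrophage markers and of the endothelial markers in the same comparison. Cd300ld, chosen for its levels, lies far to the right of the macrophage median in both comparisons with WT (3.92 and 2.59). Cd300lg lies to the right of the endothelial median in all 3 (-0.25, 1.26 and 1.51).

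Of the other family genes, Cd300ld3 was the only one detected. Its brightest probe read 7.16 and 7.47 in WT, 6.51, 7.02 and 6.44 in IL6_KO, and 5.82, 5.65 and 6.05 in sgp130Fc. The order of the groups was the opposite of that of Cd300ld in its comparisons with WT: WT was highest, IL6_KO lay between and sgp130Fc was lowest, with no overlap. Groups without overlap in these directions occurred at 20.2% of all probes for IL6_KO below WT, 15.1% for sgp130Fc below WT and 12.6% for sgp130Fc below IL6_KO. Its log2 difference of sgp130Fc minus WT was -1.48 ± 0.22 (SE) and did not pass (adjusted p = 0.0742), though it passed without IL6_KO replicate 2 (adjusted p = 0.0278) and with array weights (adjusted p = 0.0181). For IL6_KO minus WT it was -0.66 (adjusted p = 0.159), and for sgp130Fc minus IL6_KO it was -0.82 (adjusted p = 0.0934), which passed with array weights (adjusted p = 0.00971). A second probe of the gene gave differences of -0.27, -0.66 and -0.39 in the order IL6_KO minus WT, sgp130Fc minus WT, sgp130Fc minus IL6_KO, with adjusted p-values of 0.530, 0.479 and 0.342. The third Cd300ld3 probe and the probes of Cd300c and Cd300e were not above background on any array, and Cd300c2, Cd300ld2, Cd300ld4 and Cd300ld5 had no named probe.

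The adaptors and enzymes through which CD300 receptors signal were mostly higher in IL6_KO fat, by amounts that did not pass singly. Of 18 such genes 14 were tested. Their median log2 difference of IL6_KO minus WT was 0.80, against -0.0026 over all 9803 tested genes (-0.0053 for sgp130Fc minus WT and 0.0013 for sgp130Fc minus IL6_KO), with 13 of 14 positive and 0 passing. For sgp130Fc minus WT the median was 0.32, with 11 positive and 0 passing, and for sgp130Fc minus IL6_KO it was -0.51, with 2 positive and 0 passing. Tyrobp, which encodes DAP12, read 10.15 and 10.59 in WT, 11.46, 12.15 and 11.46 in IL6_KO, and 10.75, 10.64 and 10.96 in sgp130Fc. All IL6_KO arrays were above all others, a gap found at 18.5% of all probes against WT and 12.6% against sgp130Fc. The difference of Tyrobp in IL6_KO from WT was 1.32 ± 0.25 (SE, adjusted p = 0.0693).

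Fcer1g, which encodes the Fc receptor gamma chain, differed by 0.82 between IL6_KO and WT (adjusted p = 0.125) and by 0.26 between sgp130Fc and WT (adjusted p = 0.809). Hcst, which encodes the adaptor DAP10, differed by 0.21 and -0.35 in the same comparisons. Downstream of these adaptors act the kinases Syk, with 0.79 and 0.46, and Btk, with 1.08 and 0.67. On the inhibitory side, Ptpn6 (SHP-1) differed by 0.72 and 0.14 and Inpp5d (SHIP-1) by 0.65 and 0.55. The lowest differences of IL6_KO from WT were those of Ptpn11 (SHP-2), at -0.45, and the linker Grb2, at 0.09. The ends of the list for sgp130Fc minus IL6_KO were Ptpn11 at 0.29 and Grb2 at 0.03, and Tyrobp at -0.90 and the phospholipase Plcg2 at -0.86. The adjusted p of each of these genes, in each of the 3 comparisons, was 0.0693 or more.

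Other paired receptors of myeloid cells were also mostly positive in IL6_KO fat. Of 32 genes 24 were tested, and for IL6_KO minus WT 22 of them were positive and 0 passed, with a median log2 difference of 0.66 (0.57 with genes below background in the dimmer group set to their bound). For sgp130Fc minus WT 16 were positive and 0 passed, with a median of 0.19. Between sgp130Fc and IL6_KO 2 were positive, and 1 passed in the lower direction, against 0.453% of all probes; the median was -0.47 (-0.42 at the bound). The gene that passed was Pilra, an inhibitory receptor, which was detected on the 3 IL6_KO arrays only, at 5.17 to 5.54, and was at least 1.26-fold lower in sgp130Fc (adjusted p = 0.0404). Pilra met the detection filter only through the IL6_KO arrays, where it was high, so its call is a description and no support for a difference. The call did not hold under 12 of its 18 alternative settings.

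Clec4d, an activating C-type lectin of macrophages, had the highest difference of IL6_KO from WT among these receptors. It read 7.46 and 7.68 in WT, 11.16, 12.33 and 9.51 in IL6_KO, and 8.10, 8.73 and 8.84 in sgp130Fc. The groups did not overlap and stood in the same order as for Cd300ld. Such gaps occurred at 18.5% (IL6_KO above WT), 13.1% (sgp130Fc above WT) and 12.6% (sgp130Fc below IL6_KO) of all probes. The log2 differences of Clec4d from WT were 3.43 ± 0.65 (SE, adjusted p = 0.0693) in IL6_KO and 0.99 ± 0.65 (adjusted p = 0.745) in sgp130Fc. Next came Lilrb4a, an inhibitory receptor, at 2.07 (adjusted p = 0.109) for IL6_KO minus WT, and the lowest were Treml1 and Treml2, both at -0.04. For sgp130Fc minus WT the ends were the sialic acid receptor Siglec1 (1.00) and Clec4d, and at the lower end Lilra6 (-0.75) and Trem1 (-0.25). Pilrb1 was not above background on any sgp130Fc array, so its difference is only a bound (at least 1.02-fold lower than WT) and it has no rank. Between the modified genotypes (sgp130Fc minus IL6_KO) they were Siglec1 (0.56) and Clec4a1 (0.36), and Clec4d (-2.45) and Lilrb4a (-1.73).

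Receptors for phosphatidylserine, a ligand of CD300a, and for dying cells were listed together with engulfment machinery. The medians of these genes were closer to that of all genes. Of 22 genes 19 were tested, and 0 passed in any of the 3 comparisons. The median log2 difference was 0.14 for IL6_KO minus WT and also for sgp130Fc minus WT (0.12 and 0.11 at the bound), each with 14 positive, and -0.03 for sgp130Fc minus IL6_KO, with 7 positive. Havcr2, which encodes the receptor TIM-3, was at the upper end against WT in both, at 0.83 and 1.00. It was followed by the integrin subunit Itgav at 0.81 in IL6_KO and by the kinase Mertk at 0.72 in sgp130Fc. At the lower end stood Timd4 (-0.43) and Gas6 (-0.22) for IL6_KO, and Rac1 (-0.43) and Timd4 (-0.36) for sgp130Fc. Between sgp130Fc and IL6_KO the ends were the scavenger receptor Scarb1 (0.73) and Mertk (0.47), and Elmo1 (-0.64) and Lrp1 (-0.52).

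The genes on either side of the Cd300 cluster on chromosome 11 showed no common direction. Of 22 flanking genes 12 were tested, and 0 passed in any comparison. The median log2 differences were -0.12, 0.07 and 0.01 in the order IL6_KO minus WT, sgp130Fc minus WT, sgp130Fc minus IL6_KO, with 4, 7 and 6 positive. Slc9a3r1, a scaffold protein of the cell membrane, had the highest difference from WT in both genotypes, at 0.90 (adjusted p = 0.182) and 0.44 (adjusted p = 0.769). Grin2c followed at 0.52 in IL6_KO. Gprc5c was above background on the 3 sgp130Fc arrays alone, at least 1.18-fold higher than WT, without passing (adjusted p = 0.644). The lowest were Nat9 (-0.76) and Hid1 (-0.40) in IL6_KO and Mrpl58 (-0.40) and Ttyh2 (-0.31) in sgp130Fc. Between sgp130Fc and IL6_KO, Hid1 and Nat9 were highest, both at 0.60, and Slc9a3r1 and Grin2c lowest, both at -0.45.

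Whole tissue was measured, so fewer cells of a type and less RNA per cell cannot be told apart, and markers of the cells that carry CD300 receptors were read beside the members. Of 20 macrophage markers 15 were tested, and their mean level was 9.15 to 9.25 on the WT arrays, 9.61 to 9.98 on the IL6_KO arrays and 9.63 to 9.84 on the sgp130Fc arrays. The median log2 difference was 0.54 for IL6_KO minus WT and 0.58 for sgp130Fc minus WT, each with 14 of 15 positive and 0 passing. For sgp130Fc minus IL6_KO it was -0.11, and Cd163, a haemoglobin scavenger receptor, passed at 2.80 (adjusted p = 0.0110), against 0.813% of all probes in that direction. Adgre1, which encodes F4/80, differed from WT by 0.91 (adjusted p = 0.0881) and 0.71 (adjusted p = 0.416), and Itgam (CD11b) was at least 2.98-fold higher in IL6_KO than in WT without passing (adjusted p = 0.115). Msr1 and Cybb were not above background on any array, and Csf1r, Cd68 and Mpeg1 are not analysed here.

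Cd300ld stood further from WT than the macrophage markers on every modified array. Relative to the WT mean it was 3.50, 4.95 and 3.32 higher on the log2 scale on the IL6_KO arrays, where the macrophage markers had medians of 0.63, 0.77 and 0.46. On the sgp130Fc arrays it was 2.64, 2.64 and 2.51 higher, against marker medians of 0.53, 0.36 and 0.66. On each of these 6 arrays Cd300ld exceeded all 15 markers. Since Cd300ld was chosen for these levels, its place beyond the markers is part of that choice and only a description. Cd300a exceeded 12, 12 and 8 of the 15 on the IL6_KO arrays and 4, 6 and 5 on the sgp130Fc arrays. Cd300lb exceeded 14, 14 and 3 on the IL6_KO arrays and 6, 6 and 1 on the sgp130Fc arrays, so these 2 members were not uniformly beyond the markers.

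**Figure D3:**
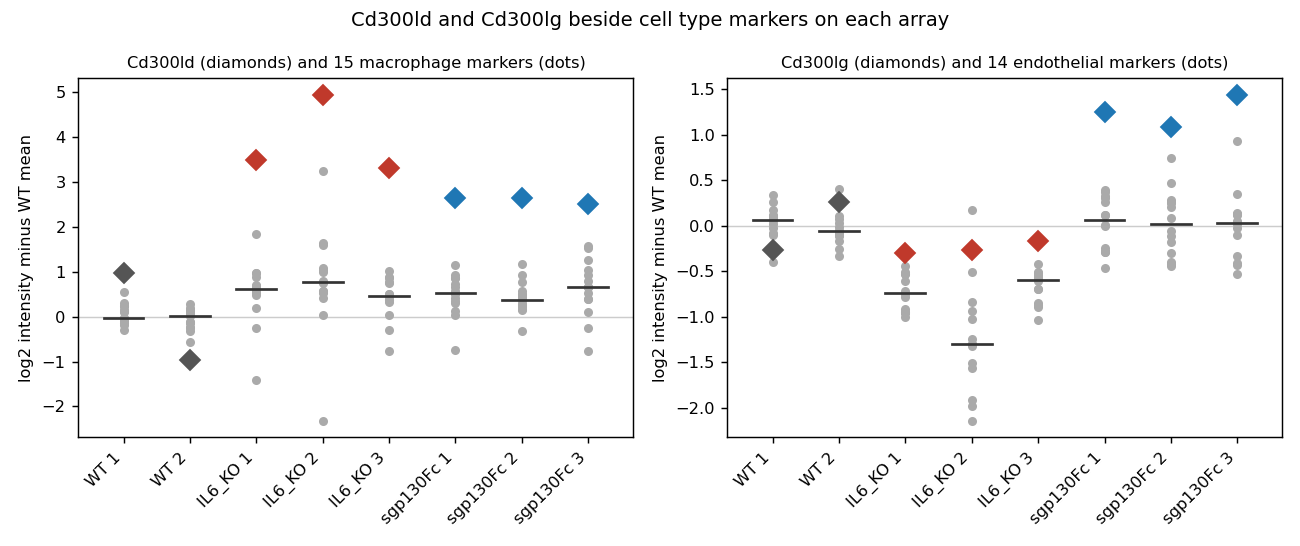
Log2 intensity minus the WT mean (vertical axis) on each of the 8 arrays (horizontal axis) for Cd300ld with 15 macrophage markers and for Cd300lg with 14 endothelial markers; diamonds are the Cd300 gene, dots the markers and short lines the marker median. Cd300ld, chosen for its levels, is above all 15 markers on the 3 IL6_KO and 3 sgp130Fc arrays. Cd300lg is above all 14 on the 3 sgp130Fc arrays.

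Mast cells also carry CD300 receptors, and part of their markers differed between sgp130Fc and IL6_KO fat. Of 10 markers 8 were tested, with mean levels of 7.06 to 7.12 in WT, 7.40 to 8.74 in IL6_KO and 5.83 to 6.64 in sgp130Fc. Their median log2 difference was 1.31 for IL6_KO minus WT (7 positive, 0 passing), -0.88 for sgp130Fc minus WT (1 positive, 0 passing) and -1.96 for sgp130Fc minus IL6_KO (0 positive). In the last comparison 4 mast cell proteases fell, against 0.453% of all probes. Cpa3 fell by 2.85 (adjusted p = 0.0267), Mcpt4 fell by 3.38 (adjusted p = 0.0266), Cma1 fell by 3.05 (adjusted p = 0.0177) and Tpsb2 fell by 2.28 (adjusted p = 0.0196). These calls were lost under 7 of 19, 6 of 18, 4 of 19 and 5 of 19 alternative settings in that order. Mcpt4 was detected on 2 of the 3 sgp130Fc arrays (4.94 on replicate 2), so the size of its fall is not exact. The members were set against the 8 markers relative to the WT mean. Cd300a exceeded 3, 3 and 5 markers on the IL6_KO arrays and 8, 7 and 7 on the sgp130Fc arrays. Cd300lb exceeded 3, 5 and 3 on the IL6_KO arrays and 8, 7 and 5 on the sgp130Fc arrays. Cd300ld, chosen for its levels, exceeded all 8 on each of these arrays. Ms4a2 was detected on 1 array and Kit is not analysed here.

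Markers of monocytes and neutrophils, another source of CD300 transcripts, had mean levels of 7.00 to 7.09 in WT, 6.98 to 8.94 in IL6_KO and 7.39 to 7.54 in sgp130Fc. The highest of these was IL6_KO replicate 2, the array that stood apart and that also gave the brightest readings of Cd300ld, Cd300a and Cd300lb. Its markers had a median deviation from the WT mean of 1.31, against 0.23 and -0.02 on IL6_KO replicates 1 and 3. Of 16 markers 9 were tested, with median log2 differences of 0.56 (0.48 at the bound), 0.17 and -0.43 in the order IL6_KO minus WT, sgp130Fc minus WT, sgp130Fc minus IL6_KO. The secreted iron-binding protein gene Lcn2 alone passed, at 2.26 for sgp130Fc minus IL6_KO (adjusted p = 0.0370). In that direction 0.813% of all probes passed. The Lcn2 call was lost under 7 of 19 settings. Ccr2 and Cxcr2 were not above background on any array, and Mpo and Ngp were each detected on 1. The part of these cells and of mast cells in the levels of the myeloid Cd300 genes was not tested. Dendritic cell markers (9 of 12 tested, 0 passing in any comparison) had median differences of 0.05, -0.20 and -0.23 (-0.16 at the bound) in the same order, and B and T cell markers (5 of 12 tested, 0 passing) had -0.70, -1.24 and -0.49.

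Endothelial markers were read beside Cd300lg. Of 18 markers 14 were tested, with mean levels of 9.80 to 9.86 in WT, 8.59 to 9.19 in IL6_KO and 9.82 to 9.86 in sgp130Fc. For IL6_KO minus WT all 14 were negative, with a median log2 difference of -0.84 and 0 passing, whereas for sgp130Fc minus WT the median was 0.05 and 7 were positive. For sgp130Fc minus IL6_KO all 14 were positive, with a median of 0.85, and 5 rose, against 0.813% of all probes: Esam (0.91, adjusted p = 0.0388), Emcn (0.83, adjusted p = 0.0259), Robo4 (1.12, adjusted p = 0.0283), Gpihbp1 (1.46, adjusted p = 0.0404) and Sox17 (2.09, adjusted p = 0.0174). Of 19 settings, 10 ended the call of Esam, 5 that of Emcn, 7 that of Robo4, 9 that of Gpihbp1 and 4 that of Sox17. The 5 genes encode adhesion and guidance molecules of the vessel wall, the anchor of lipoprotein lipase on capillaries and an arterial transcription factor. Pecam1, the adhesion molecule CD31, differed by -0.62, 0.15 and 0.77 in the order IL6_KO minus WT, sgp130Fc minus WT, sgp130Fc minus IL6_KO, and Cdh5, which encodes VE-cadherin, by -1.21, -0.25 and 0.96, with no call. Kdr was not above background on any array and Erg was detected on 1.

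Relative to the WT mean, Cd300lg was 1.25, 1.09 and 1.44 higher on the log2 scale on the sgp130Fc arrays, where the endothelial markers had medians of 0.06, 0.01 and 0.03. It exceeded all 14 markers on each of the 3. On the IL6_KO arrays it stood at -0.30, -0.27 and -0.17, against marker medians of -0.74, -1.30 and -0.59, and exceeded 14, 13 and 14 of the 14. Its distance from WT in sgp130Fc fat was thus larger than that of every endothelial marker tested, and in IL6_KO fat it was nearer to WT than nearly all of them. Adipocyte markers had mean levels of 10.84 to 11.01 in WT, 9.29 to 10.49 in IL6_KO and 10.63 to 10.72 in sgp130Fc. Their median differences were -0.82, -0.22 and 0.81 (0.76 at the bound) over 11 of 12 genes in the order IL6_KO minus WT, sgp130Fc minus WT, sgp130Fc minus IL6_KO, and Retn, which encodes the hormone resistin, fell by 1.94 in IL6_KO against WT (adjusted p = 0.0467), where 0.177% of all probes fell. The Retn call was lost under 11 of 18 settings, and the log2 difference was -0.80 with quantile normalization and no background correction. Retn was detected on 1 of the 3 IL6_KO arrays, so the size of its fall is not exact. What the lower adipocyte and endothelial markers of IL6_KO fat contribute to the other levels was not tested.

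The profile of Cd300ld over the 8 arrays was compared with that of every tested probe after each was centred on its own mean. Here the closest probe stands for a gene. The likeness measure was the root mean square difference on the log2 scale, and the profile of Cd300ld itself had a root mean square of 1.66. The closest gene was Pla2g7, which encodes the hydrolase of platelet-activating factor, at a difference of 0.879. It was followed by the beta-glucan receptor gene Clec7a (0.916), the collagenase gene Mmp13 (0.935), Luc7l3 (0.958), Clec4d (0.968) and Ly9 (0.981). For Clec7a the closest probe was not its brightest. The log2 difference of IL6_KO minus WT was 2.73 for the closest probe and 1.91 for the brightest. Pla2g7 read 7.77 and 7.22 in WT, 9.71, 10.77 and 8.64 in IL6_KO, and 8.02, 8.35 and 8.55 in sgp130Fc. Luc7l3 read 9.60 and 7.04 in WT and 9.72 to 10.21 on the other arrays, so WT replicate 2 alone was low.

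The profile of Cd300lg had a root mean square of 0.707, against 1.66 for Cd300ld, so their differences are not on a like scale. The genes closest to Cd300lg lay at smaller differences. They were Osbpl6 (0.255), Fam214a (0.264), Vsig2 (0.283), Tsc22d3 (0.285), St6galnac2 (0.293) and Tmem252 (0.294). Tsc22d3, which encodes the glucocorticoid-induced leucine zipper, read 12.26 and 11.87 in WT, 11.25, 11.44 and 11.58 in IL6_KO, and 12.93, 12.87 and 13.17 in sgp130Fc. Its sgp130Fc arrays were above all others, as for Cd300lg, to which it was picked as close. The sgp130Fc arrays were above those of WT for 13.1% of all probes and above those of IL6_KO for 13.1%. The closeness of 8 points over 3 groups is a description of these arrays.

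**Figure D4:**
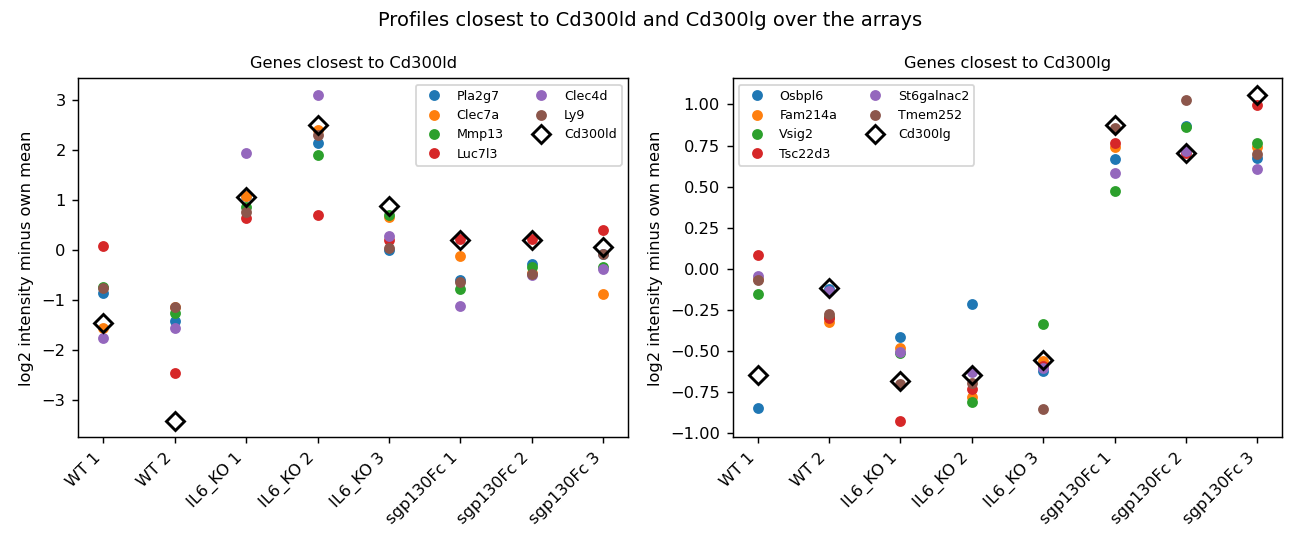
Log2 intensity centred on the mean of each gene (vertical axis) over the 8 arrays (horizontal axis) for Cd300ld and the 6 genes closest to it, and for Cd300lg and its 6 closest genes. Cd300ld is lowest on the 2 WT arrays, whereas Luc7l3 is low on WT replicate 2 alone. The Cd300ld panel peaks on IL6_KO replicate 2, and the Cd300lg panel is high on the 3 sgp130Fc arrays.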

How the data were processed

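The authors deposited, per the file headers, a linear probe intensity and a detection p-value for each of 8 arrays, neither background-corrected nor normalized, and a table of normalized log2 values (column median 5.04). The submitters' processing notes name GenomeStudio and limma without versions. The deposited intensities were normalized here with neqc in limma 3.58.1 (R 4.3.3; offset 16), which gave values within 0.0548 of the deposited log2 values.

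The test took the 14141 probes (9803 genes) that 2 or more arrays detected at p under 0.05. A model of group means, fitted by limma (lmFit, eBayes), used all 8 arrays (8.98 degrees of freedom, 3.98 from the prior), and the 3 comparisons were tested on both sides, with Benjamini-Hochberg adjustment over all probes within a comparison and a threshold of 0.05. The brightest tested probe stands for a gene, except among the profiles closest to Cd300ld and Cd300lg, where the closest probe does. Where all arrays of the dimmer group were below background, the fold is written as "at least" and was computed against their lowest detected level. The number of arrays limits the precision. Symbols came from the array annotation: 23978 probes had 1, 0 had several and 1719 had none, and 23962 gene identifiers matched RefSeq genes of GRCm38.p6.

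The members and the 11 gene lists (194 entries, 0 unmatched) were chosen with earlier results of these data known. Named genes were all Cd300 probes; a fixed set (Tyrobp, Fcer1g, Hcst, Syk, Ptpn6, Inpp5d, Adgre1, Csf1r, Itgam, Pecam1, Cdh5, Gpihbp1); each list gene that passed; the 2 highest and 2 lowest of the adaptor, paired receptor, phosphatidylserine receptor and flanking lists; and the 6 genes closest to Cd300ld and to Cd300lg. Promoter windows were aligned with Biopython 1.88. The alternatives were the deposited log2 values, quantile normalization without background correction, 75th-percentile scaling, an offset of 50, array weights, an intensity trend, no filter on detection, a filter for detection on every array, only the groups compared, a replicate block, gene values averaged over their tested probes, and leaving out each array. The model was tested on simulated data.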

Additional observations from a re-analysis of the deposited data

How the results depend on the processing

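Of the 222 values of the 4 detected members under alternative settings, 210 kept their direction and their side of the threshold, or stayed within the spread between replicates for Cd300ld. The number of tested members that passed for IL6_KO minus WT was 0 to 1 on leaving out each array; the 1 was Cd300a without IL6_KO replicate 3. For sgp130Fc minus WT it was 1 with the offset of 50 and 1 with the intensity trend, Cd300lg both times. For sgp130Fc minus IL6_KO it was 0 to 1 on leaving out each array and 2 with array weights, whose estimate stopped before convergence; the added gene was Cd300a (-0.58, adjusted p = 0.0430). The log2 difference of Cd300lg in this comparison lay between 1.42 and 1.59 on leaving out each array (adjusted p = 0.0071 to 0.0517) and between 1.36 and 1.51 otherwise (adjusted p = 0.000427 to 0.0336). Its adjusted p for sgp130Fc minus WT ran from 0.0419 to 0.319. The sign turned for Cd300lg in IL6_KO minus WT without WT replicate 2 (0.018, lowest -0.51), and for Cd300lb in sgp130Fc minus WT without WT replicate 1 (-0.33) or sgp130Fc replicate 1 (-0.067), where the highest was 0.55. Among other named genes it turned for Ptpn6 (sgp130Fc minus WT, -0.0052 without sgp130Fc replicate 3, highest 0.29), Inpp5d (sgp130Fc minus IL6_KO, 0.25 without IL6_KO replicate 2 and 0.073 without sgp130Fc replicate 2, lowest -0.41) and Cdh5 (sgp130Fc minus WT, 0.082 without WT replicate 1, lowest -0.59). Of 1037 values of those genes 110 lost a call, and each marker or receptor call named lost it under at least 1 array left out. The causes were not tested.

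The deviations of same-numbered arrays from their group means correlated between -0.35 and 0.18, so the numbers were not taken as pairs. With the replicate number as a block, Cd300lg in sgp130Fc minus IL6_KO had a log2 difference of 1.51 (adjusted p = 0.0336), and the counts of members that passed were 0, 0 and 1 as before. The probes passing numbered 12, 5 and 79 with the block, against 35, 13 and 179. On leaving out each array they ran from 6 to 778, 3 to 21 and 24 to 495, and under the other settings from 5 to 268, 5 to 28 and 79 to 1730. The signal of Cd300lf, Cd300c and Cd300e was below background on all arrays, so nothing can be said of their differences.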
